A study of Lentinus tigrinus with 27 samples.

Results

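The mature cap of the mushroom Lentinus tigrinus was compared with vegetative mycelium of the same strain, RLP-9953-sp. The comparison used 6 of the 27 libraries of the series, chosen by their titles: 3 of the cap of the fruiting body (FB_cap) and 3 of vegetative mycelium (VM). The other 21 libraries belong to 7 further groups of 3 and served only to place the cap among the stages of fruiting. These were stage 1 primordia (P1), caps and stipes of stage 2 primordia (P2_cap, P2_stipe), caps and stipes of young fruiting bodies (YFB_cap, YFB_stipe), and the stipes and gills of mature fruiting bodies (FB_stipe, FB_lamellae). Fruiting cultures on aspen sawdust with wheat bran were kept dark at 30 °C over 21 days, then moved to 25 °C with daily light and dark phases of 12 h each. The mature fruiting body was 50 to 70 mm tall with a flat cap. The strain was kept on malt extract agar, and it is not recorded from which of these media VM came, nor its age or light. Medium, age and light can therefore not be told apart from tissue in this comparison. The labels call the 3 libraries of a group biological replicates without saying that they come from separate cultures, so p-values measure the spread between these libraries.

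Lentinus tigrinus is a wood-decay fungus. Its mycelium grows as free hyphae that feed on the substrate, and the cap is a tissue of compacted hyphae that carries the gills below it. In mushroom-forming fungi, vegetative hyphae secrete enzymes that break down plant cell walls, while the cells of a cap expand, build a different cell wall and are fed by the mycelium. The gene models of the files carry identifiers of the Lenti6_1 gene set and no names. None of them matched the reference gene table at hand, which is of another assembly. Genes are therefore described by level, length and behaviour, and 6 are given by identifier, 2 that rose, 2 that fell and 2 at the same level.

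Reads assigned to genes numbered 18.7 ± 6.97 M in VM and 15.6 ± 4.30 M in FB_cap (mean ± SD, n = 3 each), and between 11.4 and 26.7 M in the 6 libraries. Of 15581 gene models, 13704 had at least 1 read in every one of the 6 libraries and 1412 had none in any. The replicates of these 2 groups differed among themselves more than those of most groups. With read counts expressed as CPM, counts per 1e6 reads after TMM scaling, the SD between replicates had a median over genes of 0.38 in FB_cap and 0.32 in VM on the log2(CPM + 1) scale. It was 0.37 in FB_lamellae and between 0.20 and 0.28 in the other 6 groups.

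The 6 libraries did not form 2 clean clusters. Across 13193 genes the correlation of log2(CPM + 1) between VM libraries was 0.955 for replicates 1 and 2, 0.962 for replicates 2 and 3 and 0.910 for replicates 1 and 3. Between FB_cap libraries it was 0.944 for replicates 1 and 3, 0.926 for replicates 1 and 2 and 0.885 for replicates 2 and 3. FB_cap replicate 3 was thus closer to VM replicate 3, at 0.904, than to FB_cap replicate 2. These coefficients describe libraries across genes, which are not independent replicates, and carry no test. Sequencing flowcell moved with part of this pattern. FB_cap replicate 3 and VM replicate 3 shared a flowcell, and FB_cap replicate 2 shared another with VM replicates 1 and 2, with correlations of 0.886 and 0.885 to them. FB_cap replicate 1 shared no flowcell with VM, and its correlations to VM were 0.843, 0.864 and 0.881. Each VM library had its highest correlation to a cap library with the one on its own flowcell. For VM replicate 2 the margin was small, at 0.8854 to FB_cap replicate 2 and 0.8849 to FB_cap replicate 3. VM replicates 1 and 2 (0.955) shared a flowcell, and VM replicates 1 and 3 (0.910) did not. The closest VM pair (replicates 2 and 3, 0.962) and the closest cap pair (replicates 1 and 3, 0.944) each lay on different flowcells. The part of the flowcell in the likeness of libraries was not tested.

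By the fitted values, 78.3% of genes differed by less than 2-fold between the mature cap and mycelium, and a limited set differed by several-fold with no overlap between the groups' libraries. In edgeR's quasi-likelihood test on the 6 libraries, 516 of 13193 genes (3.91% of those tested) passed a Benjamini-Hochberg adjusted p of 0.05, each with a fold change of at least 2. Of these, 219 were higher (1.66%) and 297 lower in the cap (2.25%). Past 4-fold there were 142 higher and 239 lower genes, together 2.89% of those tested. The 219 higher genes had a median fold of 4.90, and the 297 lower genes a median fold of 6.35. In bulk tissue, fewer cells that make a transcript and less of it per cell cannot be told apart.

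**Figure D1:**
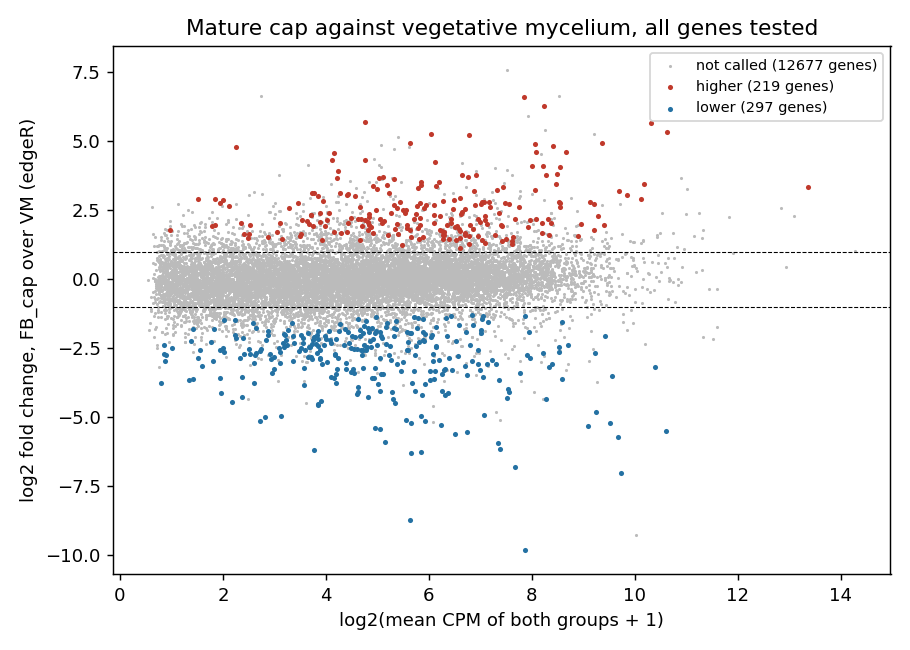
Each point is 1 of 13193 genes, with log2(mean CPM of both groups + 1) on the horizontal axis and the edgeR log2 fold change of FB_cap over VM on the vertical axis; dashed lines mark 2-fold. The 219 genes called higher and 297 called lower are coloured, and many uncalled genes lie beyond the dashed lines at every level.

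The 3 cap libraries lay all above or all below the 3 mycelium libraries in each of the 516 called genes. Over all genes tested, the cap libraries lay entirely above in 1658 genes (12.6%) and entirely below in 1867 (14.2%). A large fold alone did not make a call. Of 762 genes whose fitted fold was at least 4, 381 were called and 381 were not. In 232 of the 381 uncalled ones the groups did not overlap, a larger share than the 3525 of all 13193 genes tested. That follows in part from choosing them by a large fold. The uncalled genes had a median SD of log2(CPM + 1) of 1.10 in FB_cap and 0.67 in VM, against 0.50 and 0.41 in the called genes.

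How many genes passed depended on the libraries and on the fit. Without VM replicates 1, 2 and 3 in turn the count was 297, 12 and 215, and without FB_cap replicates 1 and 2 it was 77 and 1171. Only the loss of FB_cap replicate 3 left it within 1.5 times, at 471. One model of all 27 libraries, in which the groups share an estimate of the spread, called 2124 genes (15.7% of 13569), 1080 higher and 1044 lower. DESeq2 on the 6 libraries called 1640. On all 27 libraries, limma-voom with its own spread for each group called 1155 (8.51% of 13569). Of the 516 genes, 322 were called in the same direction by 6 further fits: the 27-library model without and with flowcell as a covariate, the 6-library fit with replicate number as a block, limma-voom on the 6 libraries, limma-voom with a spread for each group, and DESeq2. These were 122 higher and 200 lower genes. Only 12, all lower in the cap, were called whichever of the 6 libraries was left out.

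Flowcells allow the cap to be set against mycelium sequenced beside it. Among all genes tested, 421 (3.19%) were at least 2-fold higher and 568 (4.31%) at least 2-fold lower both in FB_cap replicate 2 against the mean of VM replicates 1 and 2 and in FB_cap replicate 3 against VM replicate 3. In 9240 genes (70.0%) neither difference reached 2-fold, and in 174 genes the differences were past 2-fold in opposite directions. Of the called genes, 201 of the 219 higher and 286 of the 297 lower ones were past 2-fold in both flowcells. Those libraries took part in the calls, so this describes them and does not test them. With flowcell as a covariate the 27-library model called 1749 genes, 855 higher and 894 lower. In the fit of the 6 libraries alone the same covariate takes FB_cap replicate 1 out of the comparison, and 42 genes were called.

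**Figure D2:**
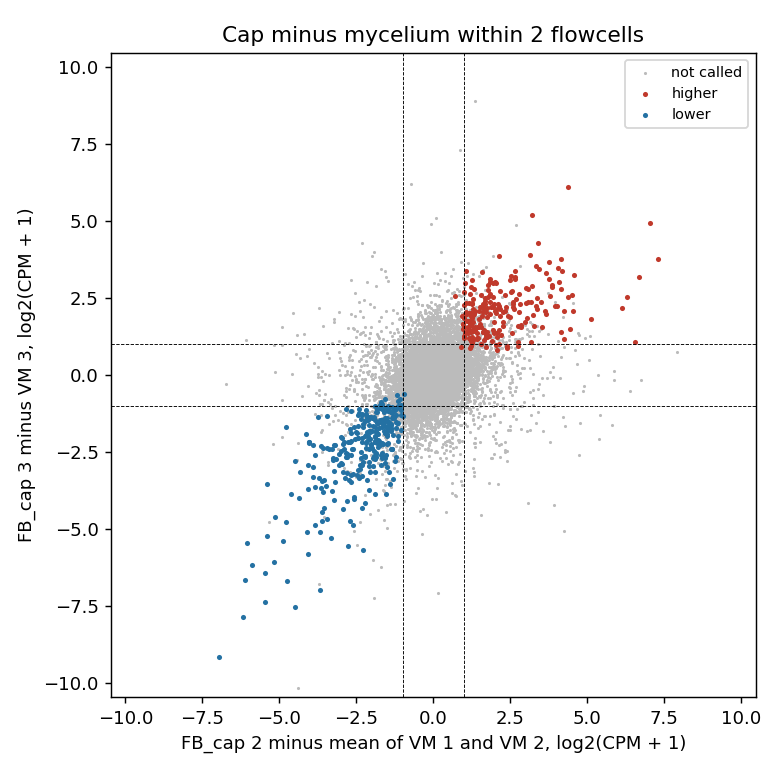
Each point is a gene, with the difference in log2(CPM + 1) between FB_cap replicate 2 and the mean of VM replicates 1 and 2 on the horizontal axis and between FB_cap replicate 3 and VM replicate 3 on the vertical axis. Genes called higher (red) and lower (blue) lie in the upper right and lower left corners, with 201 and 286 of them past the dashed 2-fold lines on both axes.

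For 266 of the 297 lower genes VM had the highest mean log2(CPM + 1) of the 9 groups, as it did for 3162 of 13569 genes (23.3%) over all. These genes were chosen for being high in VM against FB_cap, so this follows in part from the choice. Per length, they fell from a median of 46.6 TPM (a share of transcripts, from reads divided by gene length and scaled to a fixed total per library) in VM to 4.96 TPM in FB_cap. Together they held 4.83%, 4.26% and 4.97% of all TPM in the 3 VM libraries and 0.324%, 0.486% and 0.432% in the 3 cap libraries. In 31 of them the cap mean was under 1 CPM, but no gene with at least 10 reads in every VM library was without a read in all 3 cap libraries, and none the other way round.

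In the other fruiting groups most of the same 297 genes were low as well. From 230 (P1) to 280 (FB_lamellae) of them were at least 2-fold below VM. Between 17 (FB_lamellae) and 61 (P1) were within 2-fold of it, and at most 6 (P1) were above that range. The median difference of the 297 genes from VM, in log2(CPM + 1) of group means, was -1.81 in P1, -2.33 in P2_cap, -2.63 in YFB_cap and -2.28 in FB_cap. It was -2.12, -1.96 and -2.39 in the stipes of stage 2, the young and the mature fruiting body, and -2.49 in FB_lamellae. All these values share the VM libraries that helped to choose the genes, so a low value is partly given by the choice. The mature cap was the lowest of the 9 groups for 28 of them, YFB_cap for 86, FB_lamellae for 76 and FB_stipe for 56. Over all 13569 genes these groups were the lowest for 6.71%, 14.4%, 12.3% and 15.7%, in the same order.

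The genes called higher in the mature cap had a median of 21.8 TPM in VM and 91.4 TPM in FB_cap. The 219 genes held 1.30%, 1.24% and 1.31% of all TPM in the VM libraries and 10.01%, 8.29% and 6.58% in FB_cap replicates 1, 2 and 3. VM was the lowest of the 9 groups for 169 of them and for 23.4% of all genes, and this too is in part fixed by the choice. Of the 219, 59 had their highest mean in FB_cap, 44 in FB_stipe, 41 in YFB_cap and 34 in FB_lamellae. Another 29 were highest in P2_cap, 8 in YFB_stipe, 4 in P2_stipe and none in P1 or VM. Over all 13569 genes the shares were 7.13% in FB_cap, 13.4% in FB_stipe, 14.1% in YFB_cap and 11.6% in FB_lamellae. They were 9.82% in P2_cap, 9.37% in YFB_stipe, 2.30% in P2_stipe, 9.03% in P1 and 23.3% in VM. The choice of genes high in the FB_cap libraries favours FB_cap in these counts and in the medians that follow. The median difference from VM was 1.18 in P1, 1.75 in P2_cap, 1.84 in YFB_cap and 2.14 in FB_cap on the log2 scale. It was 1.55, 1.42 and 1.82 in the 3 stipe groups in order of stage and 1.81 in FB_lamellae, again against the same VM libraries.

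**Figure D3:**
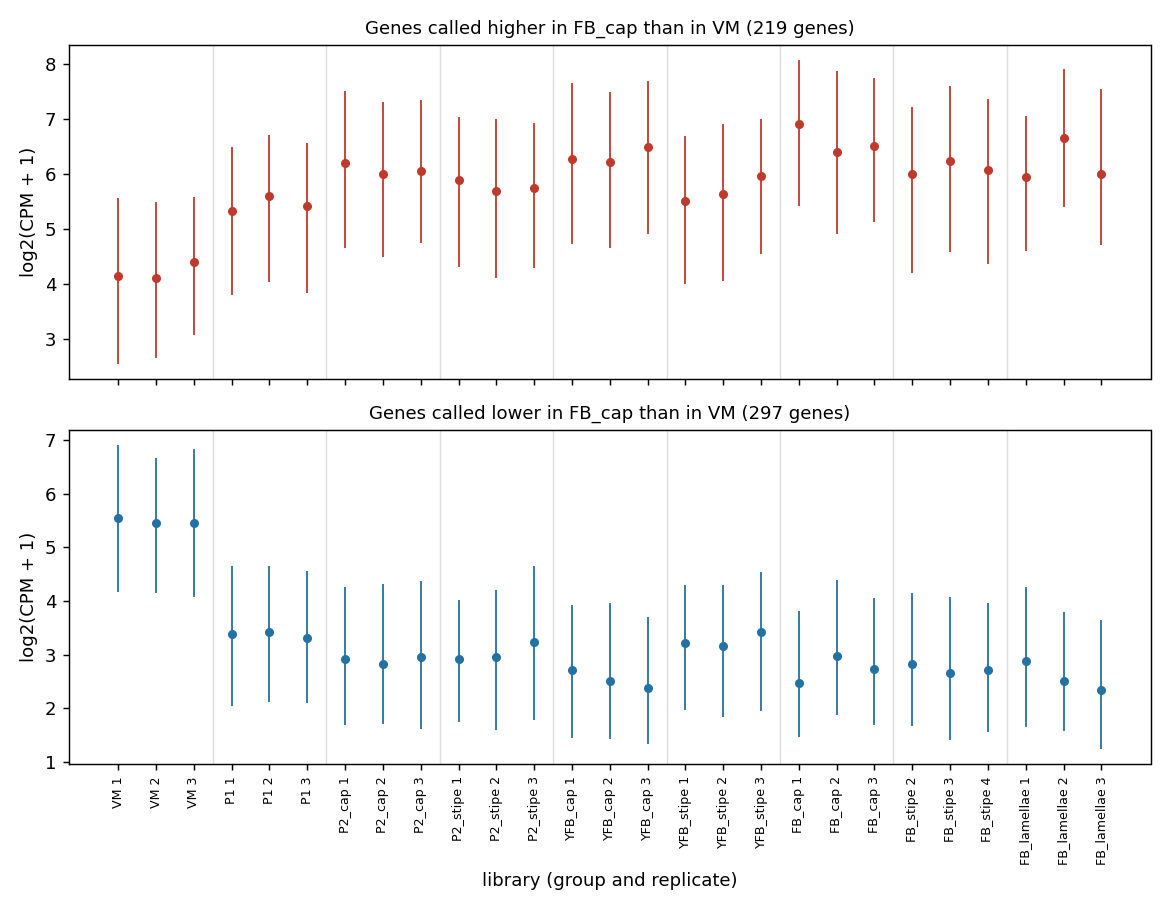
The vertical axis gives log2(CPM + 1) in each of 27 libraries along the horizontal axis; points are medians and bars the quartiles over the 219 genes called higher (upper panel) and the 297 called lower in FB_cap (lower panel). The 3 VM libraries lie lowest in the upper panel and highest in the lower one. The medians of the other fruiting libraries in the upper panel run from 5.33 in P1 replicate 1 to 6.66 in FB_lamellae replicate 2, beside 4.11 to 4.40 in VM and 6.40 to 6.92 in FB_cap.

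Where the mature cap differs from like tissues in its distance to mycelium is the direct contrast with those tissues, since VM cancels. Between FB_cap and FB_lamellae edgeR called 0 of 13016 genes in their own 6 libraries, with 992 at an unadjusted p under 0.05, and 327 in the 27-library model. Between FB_cap and FB_stipe it called 279 genes higher (2.15% of 12979) and 135 lower in the cap (1.04%). Between FB_cap and YFB_cap the calls were 364 higher (2.76% of 13170) and 202 lower (1.53%). The 3 contrasts share the FB_cap libraries, and in 1 model of 27 libraries the latter 2 called 1697 and 2205 genes.

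The largest rise by the naming rule was that of Lenti6_1_614717, a model of 810 bases. It stood at 1.05, 2.12 and 10.8 CPM in VM replicates 1 to 3 and at 507, 51.2 and 812 CPM in FB_cap replicates 1 to 3. The groups did not overlap, but FB_cap replicate 2 was well below the other cap libraries and VM replicate 3 above the other mycelium libraries. Its log2 fold change came to 6.59 ± 1.32 (SE; edgeR gave an adjusted p of 0.0395, and the alternatives gave 9.82e-10 to 0.165). The call was lost without any 1 of the VM libraries (log2 fold changes 6.13, 6.25 and 8.17) and without FB_cap replicate 1 or 3 (6.53 and 5.93). Within flowcells the cap was higher by 4.37 for replicate 2 and 6.10 for replicate 3 in log2(CPM + 1). It was called higher in FB_cap than in YFB_cap, by 6.38 ± 1.07 on the log2 scale (SE, edgeR adjusted p = 0.0343). The differences of FB_cap from FB_stipe (3.19 ± 1.43, adjusted p = 0.222) and from FB_lamellae (3.78 ± 1.45, adjusted p = 0.646) were not called by edgeR (log2 scale, SE). Scaled over all 27 libraries, its mean was between 3.74 and 8.46 CPM in P1 and the stage 2 and young groups, 50.3 ± 75.4 CPM in FB_stipe and 32.3 ± 35.7 CPM in FB_lamellae (SD, n = 3 each).

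The most abundant gene of the mature cap per length, Lenti6_1_392744 with 671 bases, held 3.21% of all TPM there and 0.403% in VM, where it ranked 9. Its VM libraries had 1683, 2115 and 1898 CPM and its FB_cap libraries 29243, 11735 and 16598 CPM. Every cap library was above every mycelium library, and FB_cap replicate 1 was the highest. Its log2 fold change came to 3.34 ± 0.52 (SE; edgeR gave an adjusted p of 0.0187, and the alternatives gave 3.28e-12 to 0.11), and the call was lost without each VM library in turn (3.26, 3.42 and 3.34) and without FB_cap replicate 1 (2.94). With flowcell as a covariate it was 2.73 in the 27-library model, where the call held, and 2.85 in the 6 libraries, where it did not. It was abundant in other fruiting groups as well, with means scaled over 27 libraries of 15229 ± 3645 CPM in P1, 26552 ± 5296 CPM in YFB_stipe and 31355 ± 3681 CPM in FB_stipe, against 18907 ± 8753 CPM in FB_cap (SD, n = 3 each). FB_lamellae ranged from 839 to 7063 CPM, and its difference from FB_cap was not called (2.64 ± 1.01 on the log2 scale, SE; adjusted p of 0.646 by edgeR).

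The largest fall was that of Lenti6_1_580031, a model of 987 bases. VM replicates 1 to 3 had 108, 274 and 1003 CPM and FB_cap replicates 1 to 3 had 0.298, 0.395 and 0.775 CPM. The lowest mycelium library was far above the highest cap library. Its log2 fold change came to -9.81 ± 1.10 (SE; edgeR gave an adjusted p of 0.0111, and the alternatives gave 3.96e-29 to 0.0549). It was -8.53 without VM replicate 3, and the call was lost without VM replicate 2 or FB_cap replicate 1 (-10.09 and -9.58). The 8 fruiting groups had means between 0.366 and 1.09 CPM in the scaling of 27 libraries, so the low level was shared by all of them.

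The gene of highest TPM in mycelium among those that fell, Lenti6_1_575656 with 1069 bases, stood at different levels by tissue. It had 2204, 1829 and 5073 CPM in VM and 124, 28.2 and 49.3 CPM in FB_cap, with no overlap. Its log2 fold change came to -5.50 ± 0.77 (SE; edgeR gave an adjusted p of 0.0143, and the alternatives gave 1.59e-14 to 0.0569). The call was lost without VM replicate 2 (-5.76), and the change was -4.91 without VM replicate 3 and -6.26 without FB_cap replicate 1. It ranked 10 by TPM in VM and 2554 in FB_cap. Scaled over 27 libraries, it stood at 2160 ± 739 CPM in FB_stipe, 1926 ± 257 CPM in YFB_stipe and 917 ± 583 CPM in P2_stipe, whose libraries ran from 245 to 1289 CPM (SD, n = 3 each). P1 had 558 ± 206 CPM and VM 2956 ± 1761 CPM in the same scaling (SD, n = 3 each). The libraries of FB_stipe and YFB_stipe overlapped with those of VM, and those of P2_stipe and P1 lay below them. FB_cap was below FB_stipe at -5.02 ± 0.68 on the log2 scale (SE; adjusted p of 0.0181 by edgeR).

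**Figure D4:**
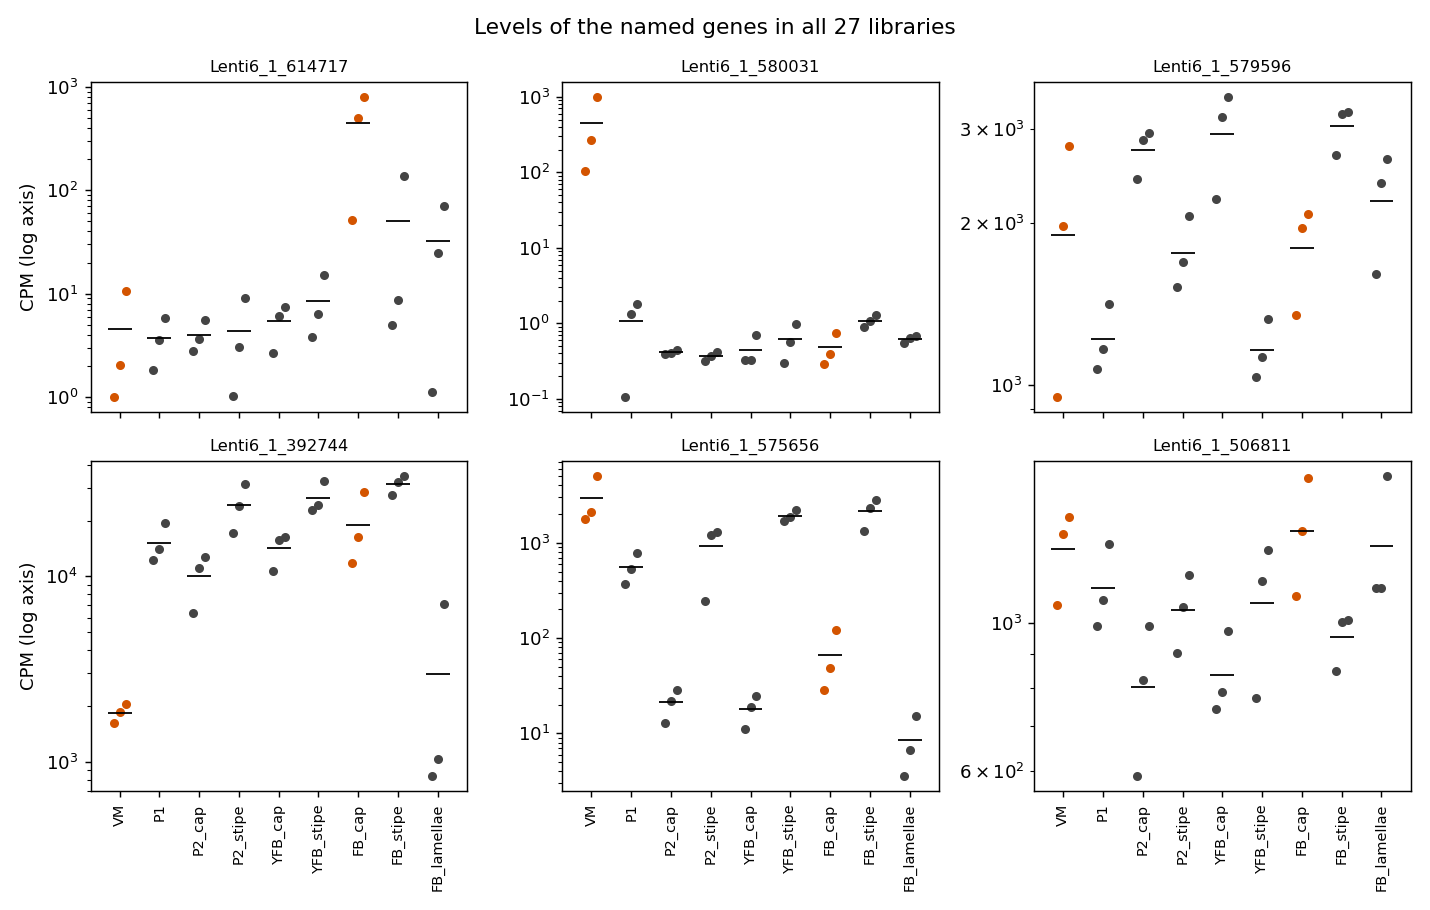
CPM on log axes, scaled over 27 libraries, in the 9 groups for 2 genes that rose (left), 2 that fell (middle) and 2 at the same level (right); points are libraries, bars are group means, and VM and FB_cap are in orange. Lenti6_1_580031 is high in VM and at or under 1.80 CPM in every fruiting library, while Lenti6_1_575656 is low in caps and lamellae, high in VM, FB_stipe and YFB_stipe, and between these in P1 and P2_stipe.

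A difference that misses its test does not show an equal level, so the same level was tested directly, by 2 one-sided limma-voom tests against a 2-fold change in either direction. In the 6 libraries 0 of 13193 genes passed with adjustment, with a lowest adjusted p of 0.105, and 4480 (34%) had an unadjusted p under 0.05. None of the 4480 was among the 516 called genes, which follows from the criteria, since a call needs a fitted change of at least 2-fold. Another 8197 genes (62.1%) passed neither the test of a difference nor this unadjusted test. The median 90% interval of a log2 fold change reached 0.72 to either side of the estimate. When all 27 libraries helped to estimate the spread and each group kept its own, 1800 genes (13.3% of 13569) had the same level within 2-fold at an adjusted p under 0.05. With 1 spread for all groups the number was 4431.

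By the fitted values alone, 10332 of 13193 genes (78.3%) differed by less than 2-fold, and the median size of the log2 fold change was 0.46. The median signed change was -0.02. With genes ranked by mean level into 4 classes of equal size, the median size of the fitted log2 fold change was 0.53 in the lowest class and 0.40 in the highest. The share that passes the test of the same level also depends on the precision of the counts, which grows with level, so its differences between classes do not rank how equal the levels were. Of the highest class, 47.9% had an unadjusted p under 0.05 for the same level, and 25.5% passed the adjusted test with a spread for each group. In the lowest class these shares were 17.0% and 0.849%. Called genes were 2.18% of the lowest class and 5.09%, 4.37% and 4.001% of the next 3. Their direction shifted with level, from 15 higher and 57 lower genes in the lowest class to 83 higher and 49 lower in the highest.

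Gene length showed little relation to the calls. The median length was 1325 bases for the higher, 1316 for the lower and 1330 for the uncalled genes, and between 3.36% and 4.58% of each of 4 equal classes of length were called. Level in CPM moved with length, with a median of 64.4 CPM in the longest class and 8.85 CPM in the shortest. CPM is not divided by gene length, so longer genes gather more reads at the same transcript level. Under 90% of reads were unique in 234 tested genes, 7 of them called, and their counts may hold reads of near-identical copies.

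Abundant genes were in part shared between mycelium and cap. Of the 100 genes with the highest mean TPM, 57 were in the lists of both groups (57% of each), as were 732 of the 1000 highest (73.2% of each) and 5 of the 10 highest. Of the 100 genes highest in VM, 68 differed by less than 2-fold in the cap, 11 were called lower and 1 higher, with log2 fold changes from -9.26 to 3.34. Of the 100 highest in FB_cap, 60 differed by less than 2-fold, 7 were called higher and 0 lower. Over all genes tested 78.3% differed by less than 2-fold, 1.66% were called higher and 2.25% lower, so fewer genes of these lists than of all genes lay within 2-fold. These lists were ranked on the libraries compared, so their balance follows in part from the ranking.

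Transcripts were more concentrated in a few genes in the cap. The 10 most abundant genes of a library held 20.6%, 16.2% and 14.2% of TPM in FB_cap replicates 1 to 3 and 9.35%, 8.30% and 8.29% in VM replicates 1 to 3. The means were 17.0 ± 3.27% and 8.65 ± 0.611% (SD, n = 3 each). The 100 most abundant held 33.0 ± 3.22% in FB_cap and 23.4 ± 0.398% in VM, and the 1000 most abundant 65.2 ± 1.65% and 57.1 ± 0.905% (SD, n = 3 each). The cap libraries lay above the mycelium libraries in each of the 3 measures (exact permutation test, two-sided p = 0.1 for each, which is the smallest that 3 against 3 can give). As shares of reads, which longer genes raise, the differences were smaller and in the same direction.

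Lenti6_1_579596 and Lenti6_1_506811 had the highest mean TPM among genes of the same level in the test with a spread for each group. Lenti6_1_579596, of 1087 bases, had 987, 2887 and 2014 CPM in VM and 2119, 1341 and 2007 CPM in FB_cap. The cap libraries lay within the range of the mycelium libraries. Its log2 fold change in that fit was 0.03 (90% interval -0.56 to 0.62, limma adjusted p for the same level = 0.0434), and in the 6 libraries alone that p was 0.117. Lenti6_1_506811, of 1146 bases, had 1106, 1411 and 1474 CPM in VM and 1687, 1367 and 1125 CPM in FB_cap, with wide overlap. Its log2 fold change in the group-spread fit was 0.10 (90% interval -0.47 to 0.66, limma adjusted p for the same level = 0.0481, and 0.105 in the 6 libraries alone). The same level in cap and mycelium did not make Lenti6_1_579596 even across fruiting, as its mean lay between 1163 CPM in YFB_stipe and 3038 CPM in FB_stipe.

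Among the fruiting groups the mature cap had the fewest genes called against mycelium when each comparison was fitted alone. Fitted in their own 6 libraries, the 8 comparisons with VM called 1688 genes in P1 (12.8%), 3821 in P2_cap (28.4%), 2504 in P2_stipe (19%), 4468 in YFB_cap (33.6%), 2400 in YFB_stipe (18.1%), 516 in FB_cap (3.91%), 4083 in FB_stipe (31.1%) and 1778 in FB_lamellae (13.5%). The common coefficient of biological variation, a measure of the spread between libraries, was 0.432 in the FB_cap and 0.423 in the FB_lamellae comparison. It was 0.315 to 0.354 in the other 6. The part of the spread in these counts was not tested. The median size of the fitted difference uses no estimate of the spread, though it varied with the libraries used. With all libraries of each comparison it set the cap beside the primordium. It was 0.46 on the log2 scale in FB_cap and 0.47 in P1, against 0.75 in YFB_cap, 0.71 in FB_stipe, 0.65 in P2_cap, 0.59 in FB_lamellae, 0.54 in P2_stipe and 0.51 in YFB_stipe. With 1 library left out at a time, it ranged in FB_cap from 0.43 (without FB_cap replicate 1) to 0.57 (without FB_cap replicate 2). All 8 comparisons use the same VM libraries. In the 27-library model P1 had the fewest calls (2034), and FB_cap came next (2124).

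**Figure D5:**
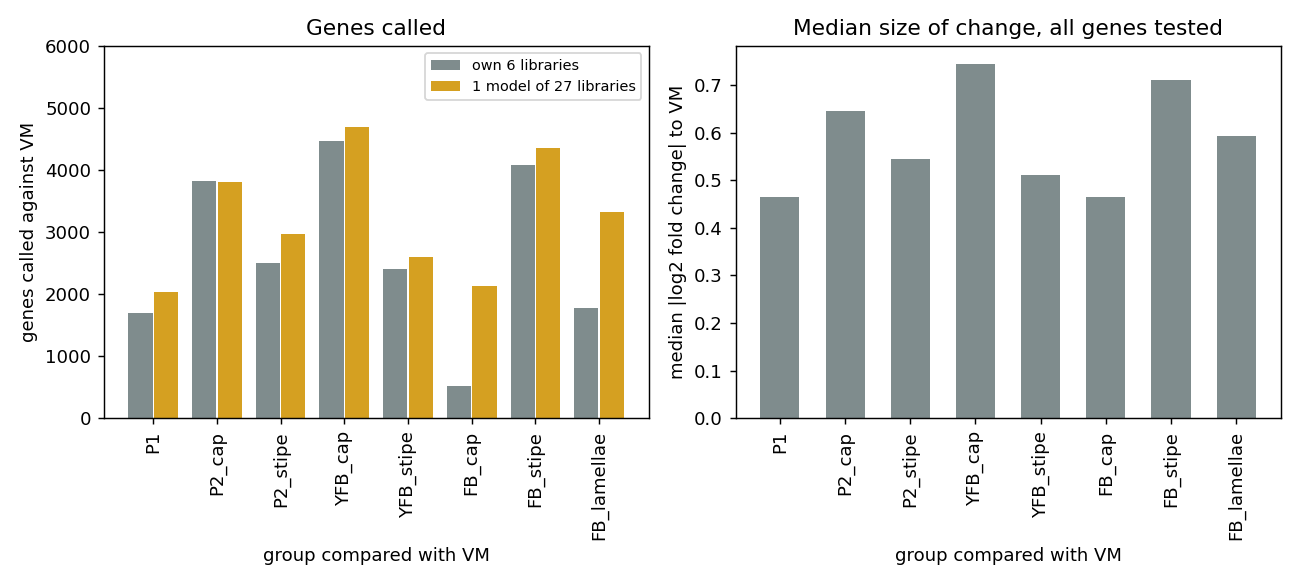
Left, the number of genes called against VM for each of 8 fruiting groups, fitted on the 6 libraries of each comparison (grey) and in 1 model of 27 libraries (yellow); right, the median absolute log2 fold change to VM over all genes tested in the own-library fits. FB_cap has 516 grey calls against 2124 yellow ones, and its median change, 0.46, is close to that of P1.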

How the data were processed

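Libraries were prepared from polyA RNA (integrity number over 8) by the Illumina TruSeq v2 protocol, per the labels' protocols, with no statement on strand. The authors deposited for each library a count of all reads and of uniquely mapped reads per gene, gene length and TPM values, per the file headers. TPM recomputed from counts and lengths differed by at most 3.5e-10. A deposited table of log2 RPKM values covers 13805 genes. Its library scaling served as an alternative, and 0 of its columns were left unmapped. The submitters' processing notes name R 3.0.2, limma 3.18.13 and edgeR 3.4.2. The aligner is not given in the sources used here.

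Total counts were filtered with filterByExpr (minimum count 10, leaving 13193 genes and removing 2388), TMM-scaled and tested with edgeR 4.0.16 (R 4.3.3, quasi-likelihood, 4 residual degrees of freedom) on the 6 libraries alone, because the spread differed between groups and was wider in VM and FB_cap than in most. Genes were called at an adjusted p under 0.05 and 2-fold; tests are two-sided. A standard error is the fitted log2 change divided by the root of F. The same level was tested with limma-voom 3.58.1. Alternatives included DESeq2 1.42.0, all 27 libraries (18 residual degrees of freedom), flowcell and replicate terms and each library left out. The functions were tested on simulated counts.

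Named genes are, per direction, the called gene of largest fold and that of highest TPM in its higher group, with separate groups, at least 20 CPM and at least 90% unique reads. No gene passed the adjusted test of the same level in the 6 libraries, so the 2 genes of that kind come from the fit with a spread for each group. Gene lists by name could not be made, as 0 identifiers matched the 15665 genes of the reference table (Lenti7_1). The comparison and the rules were chosen with earlier results of these data known. Replicates of a group differed beyond sampling noise, with chi-square per degree of freedom from 92.5 to 339.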

Additional observations from a re-analysis of the deposited data

How the results depend on the processing

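The count of 516 genes (219 higher, 297 lower) moved with the libraries and with the fit, and most without VM replicate 2, to 12. It was 2124 (1080 and 1044) with all 27 libraries and 1749 (855 and 894) with flowcell as a covariate in them. It was 1155 (529 and 626) with a spread for each group in the 27 libraries and 1640 (813 and 827) with DESeq2 on the 6. It was 42 (25 and 17) with flowcell as a covariate in the 6 libraries, an alternative chosen after seeing the data. Leaving out 1 library at a time it ranged from 12 to 1171, from 0 to 571 higher and from 12 to 600 lower. In the 27-library model it ranged from 1509 to 2757. DESeq2 size factors, no filter on low counts, unique reads, limma-voom and the authors' scaling left it between 505 and 563. In the replicate block it was 451 (169 and 282). Same-numbered libraries deviated together at correlations of -0.131, 0.0223 and 0.264 over 10196 genes, and VM replicate 1 went best with FB_cap replicate 2 (0.356), so the numbers are not taken as pairs.

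The same level within 2-fold was found for 0 genes in the 6 libraries, and for 4431 with all 27 libraries, 5227 with flowcell in them, 1800 with a spread for each group and 4480 without adjustment (added after seeing the data). It was 0 within 1.5-fold, in the replicate block and without each library. In 1 model of 27 libraries the counts moved to 3328 for FB_lamellae against VM, and for FB_cap to 327 against FB_lamellae, 1697 against FB_stipe and 2205 against YFB_cap. Their own 6 libraries gave 1778, 0, 414 and 566.

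The excess of the cap in the share held by the 10, 100 and 1000 most abundant genes was 8.38, 9.57 and 8.15 percentage points by TPM and 4.79, 6.10 and 5.92 by reads. Without 1 library each it ranged from 6.58 to 9.77, from 8.05 to 11.3 and from 7.44 to 9.05. A gene read in 1 group only appeared once for each group, 1 without VM replicate 3 and 1 without FB_cap replicate 2, from 0 in all libraries. The 2 genes named as higher and the 2 named as lower kept their direction in all 17 alternatives each. The naming rule asked for separate groups, so a kept direction was largely set by that choice. The call was lost in 5 of the 17 for Lenti6_1_614717 and 5 for Lenti6_1_392744. It was lost in 2 for Lenti6_1_580031 and 1 for Lenti6_1_575656. The same-level gene Lenti6_1_579596 was at -0.11 (log2) in edgeR and at 0.03 in the fit with a spread for each group. Depth limits the lowest of 4 classes of level, with a median of 2.69 CPM.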
